A study of Mus musculus with 6 samples.

Results

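The leukocyte adhesion molecules described here are 9 genes taken by name: Vcam1, Icam1, Icam2, Sele, Selp, Madcam1, Darc, Lrg1 and Cd99l2. All 9 symbols were found among the 22026 gene symbols that each of the 6 samples lists, with Darc as the older symbol of Ackr1. The samples are RNAseq of choroid endothelial cells (ECs), which line the vessels behind the retinal pigment epithelium (RPE), from 129/B6 mice at postnatal day 5 (P5) and postnatal day 30 (P30). Each age has 3 isolations, and each isolation pooled the 14 eyes of 7 animals, so that no value belongs to a single mouse. The cells were labelled in the living animal with an antibody to VE-Cadherin and sorted by flow cytometry from dissected RPE/choroid, with no other treatment at either age. P5 mice received less antibody and were anaesthetized by cold, so these steps cannot be told apart from age.

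Leukocytes leave the blood in steps. Selectins on the vessel wall catch the passing cell and let it roll, chemokines held at the surface activate its integrins, immunoglobulin-family ligands of those integrins arrest it, and junctional proteins then let it pass between ECs. Most of these molecules are known as genes of activated venules that respond to inflammatory cytokines through NF-kB, while Icam2 is known as a constitutive EC surface protein.

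Expression was measured as FPKM, which scales the sequenced fragments of a gene by its transcript length and by a measure of library size. That measure was here the upper quartile of the sample. Levels can therefore be compared between genes as well as between samples. Differences between ages were tested with limma on log2(FPKM + 1), a scale that understates the change of low genes. The test covered 12481 genes whose mean FPKM reached 5 at P5 or at P30, of which 8 were adhesion genes. Madcam1 lay below that minimum. A gene was counted as changed at a Benjamini-Hochberg adjusted p under 0.01 together with at least 2-fold in mean FPKM + 1, the limits of the study. Fold changes below are ratios of mean FPKM + 1, and log2 differences are P30 minus P5 with their standard error (SE).

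From P5 to P30, Lrg1, Vcam1 and Icam1 rose 8.04-fold, 5.75-fold and 3.74-fold, and 0 of the 8 tested were higher at P5 by both limits or by an unadjusted p under 0.05 in limma. The latter held for 28.8% of all genes. These 3 genes of 8 compare with 5.89% of all genes tested that passed both limits upwards from P5 to P30, and 5.82% that passed them downwards. The endothelial selectins Sele and Selp, the chemokine receptor Darc and the junctional protein Cd99l2 had every P30 isolation above every P5 isolation without passing both limits. In all, 7 of the 8 separated the ages in this direction, against 22.0% of all genes tested, while 0 of the 8 separated them in the other, against 33.0%. These counts depend on the minimum FPKM of 5. Darc reached that minimum at P30 only (mean FPKM 3.12 at P5 and 9.13 at P30). Madcam1, lower in every P30 isolation, fell below it and is not among the 8. At a limma adjusted p under 0.05 with no limit on the fold, 6 of the 8 were higher at P30, against 16.1% of all genes. The median log2 difference was 1.47 over the 8 genes and -0.10 over all genes tested. Since the genes were chosen with results of these samples known, this contrast describes them and is no independent evidence of a direction.

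**Figure D1:**
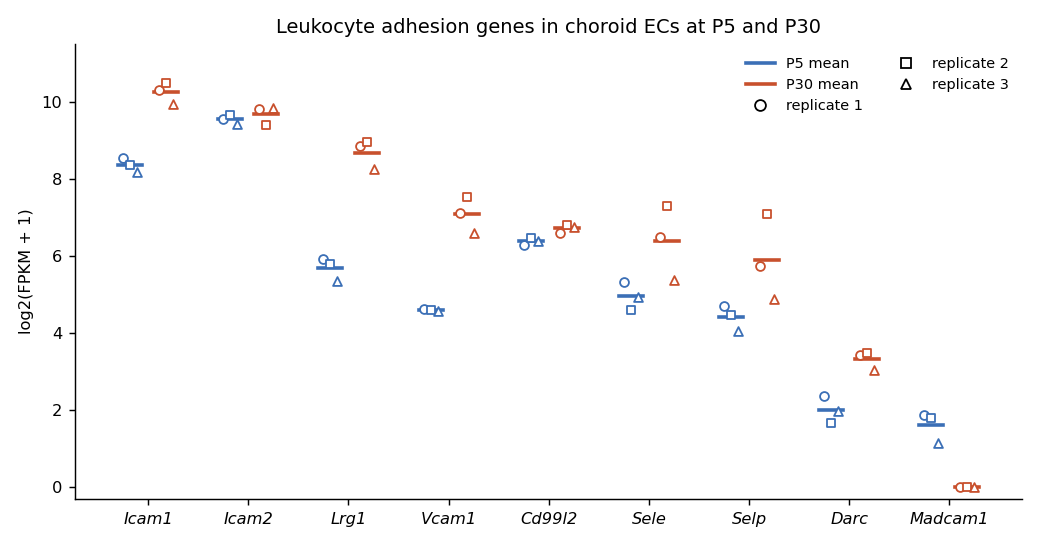
Expression of the 9 adhesion genes as log2(FPKM + 1) on the vertical axis, in order of their P30 mean; each symbol is 1 isolation (circle, square and triangle for replicates 1, 2 and 3) and each bar the mean of 3 isolations at P5 (blue) or P30 (red). Icam2 overlaps between the ages, Madcam1 is at 0 in the 3 P30 isolations, and the other 7 genes lie higher at P30, with Sele and Selp the most spread.

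The DNA before the start sites of 4 of these genes is shown because they are a pair that rose together (Icam1 and Lrg1), an endothelial selectin that did not pass the limits (Sele), and the gene listed at 0 at P30 (Madcam1). Each line gives the 250 bases before the RefSeq start site, 5′ to 3′ on the gene's own strand, from the GRCm38.p6 build. Capitals mark matches, on either strand, to the NF-kB consensus, the GAS element TTCNNNGAA bound by STAT factors, the AP-1 element TGANTCA and the TATA box TATAAA.
Icam1: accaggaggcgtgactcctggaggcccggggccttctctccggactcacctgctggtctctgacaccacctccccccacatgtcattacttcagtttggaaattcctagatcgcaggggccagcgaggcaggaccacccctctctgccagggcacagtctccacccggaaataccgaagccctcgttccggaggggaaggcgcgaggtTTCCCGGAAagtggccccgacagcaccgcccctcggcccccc
Lrg1: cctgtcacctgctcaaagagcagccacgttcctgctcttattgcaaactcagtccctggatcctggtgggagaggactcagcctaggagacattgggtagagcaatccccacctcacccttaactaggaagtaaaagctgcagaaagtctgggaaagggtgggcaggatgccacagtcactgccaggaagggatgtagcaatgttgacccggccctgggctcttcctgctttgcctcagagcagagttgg
Sele: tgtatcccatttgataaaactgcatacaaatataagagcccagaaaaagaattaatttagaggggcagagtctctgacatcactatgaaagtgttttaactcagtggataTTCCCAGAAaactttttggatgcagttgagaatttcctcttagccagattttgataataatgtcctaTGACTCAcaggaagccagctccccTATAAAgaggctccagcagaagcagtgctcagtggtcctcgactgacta
Madcam1: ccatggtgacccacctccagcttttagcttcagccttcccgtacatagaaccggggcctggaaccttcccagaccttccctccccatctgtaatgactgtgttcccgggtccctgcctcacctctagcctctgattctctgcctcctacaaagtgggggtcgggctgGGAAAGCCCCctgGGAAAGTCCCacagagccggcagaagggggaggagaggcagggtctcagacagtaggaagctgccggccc
These stretches lie at chr9:21015690-21015939 (plus strand) for Icam1, chr17:56121947-56122196 (minus strand) for Lrg1, chr1:164047984-164048233 (plus strand) for Sele and chr10:79664309-79664558 (plus strand) for Madcam1. Icam1 held TTCCCGGAA, a GAS match, from -42 to -34 relative to the start site. Sele held a GAS match (TTCCCAGAA, -140 to -132), an AP-1 match (TGACTCA, -73 to -67) and a TATA box (-49 to -44), none of which overlap. Madcam1 held 2 separate NF-kB matches, GGAAAGCCCC (-83 to -74) and GGAAAGTCCC (-70 to -61). Lrg1 held none of the 4 motifs in this window.

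Of all 32851 promoters tabled, 7.25% held the NF-kB consensus, 7.02% the GAS element, 6.75% the AP-1 element and 12.4% the TATA box within the same 250 bases. Promoters were tabled for 7 of the 9 genes, Vcam1 and Icam2 being the others. Selp held an AP-1 match (TGATTCA, -139 to -133) and no other, and Darc and Cd99l2 held none of the 4 motifs. A match describes letters only and was not tested as a binding site, and no match says only that these letters are not in this window. Stretches that resemble the NF-kB matches but differ in some letters were not marked. Examples are ggataTTCCC in Sele, which overlaps its GAS match, and ggaaattcct in Icam1. A promoter without a marked NF-kB match is therefore not shown to lack NF-kB sites.

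Icam1 and Vcam1 encode the immunoglobulin-family ligands that stop rolling leukocytes, Icam1 through the beta2 integrins LFA-1 and Mac-1 and Vcam1 through the alpha4 integrin VLA-4. Icam1 lies on chromosome 9 from base 20820404 to 20833241 (mm9, as for all gene positions below). It had an FPKM of 369, 327 and 288 in P5 replicates 1, 2 and 3, and of 1255, 1445 and 991 in P30 replicates 1, 2 and 3. The lowest P30 isolation was well above the highest P5 isolation. Its mean went from 328 ± 40.5 (SD, n = 3) to 1230.3 ± 228 (SD, n = 3), a log2 difference of 1.89 (SE 0.16, limma adjusted p = 0.000300). Icam1 stood among the top 3.04% to 4.30% of gene symbols by FPKM in the P5 isolations and among the top 0.586% to 0.890% in the P30 isolations.

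Vcam1 (chromosome 3, 115812938 to 115832606) was at 23.9, 23.3 and 23.0 in the P5 isolations, which hardly differed from each other, and at 138, 184 and 96.5 in the P30 isolations. Its mean rose from 23.4 ± 0.439 to 139 ± 43.6 (SD, n = 3), a log2 difference of 2.48 (SE 0.22, limma adjusted p = 0.000365). Among the genes tested, 2.55% had a larger log2 rise than Vcam1 and 4.94% a larger one than Icam1. Despite its larger rise, Vcam1 remained below Icam1 in every isolation.

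Icam2, a further LFA-1 ligand, is the member whose ages overlapped. Icam2 (chromosome 11, 106238970 to 106249389) had an FPKM of 756, 802 and 684 at P5 and of 901, 679.6 and 913 at P30. P30 replicate 2 was the lowest of the 6 samples and the other P30 isolations the highest. The log2 difference was 0.14 (SE 0.14, 95% interval -0.18 to 0.47, limma adjusted p = 0.437), and its sign turned under quantile normalization (-0.12) and with samples scaled to a list of endothelial markers (-0.24). That scaling lowers all genes alike, and relative to their median under it Icam2 lay at 0.24. The upper end of the interval for Icam2 was below the lower end for Icam1, 1.52.

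The order of Icam1 and Icam2 turned between the ages. The ratio of Icam1 to Icam2 FPKM within a sample does not depend on how samples are scaled. It was 0.488, 0.407 and 0.421 in the P5 isolations and 1.39, 2.13 and 1.09 in the P30 isolations, so that Icam2 was the higher gene in every P5 sample and Icam1 in every P30 sample. Vcam1 over Icam2 went from between 0.0291 and 0.0336 at P5 to between 0.106 and 0.270 at P30. These ratios were chosen after the values had been seen and carry no test.

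Sele and Selp encode E-selectin and P-selectin, the selectins of the vessel wall, of which P-selectin is also stored in the granules of platelets. They lie 57586 bases apart on chromosome 1. Sele (165978365 to 165987808) had 39.1, 23.3 and 29.8 FPKM at P5 and 89.7, 156 and 40.9 at P30. P30 replicate 3 exceeded the highest P5 isolation only narrowly, while P30 replicate 2 was far above the others. Its mean was 30.7 ± 7.95 at P5 and 95.5 ± 57.8 at P30 (SD, n = 3), and the log2 difference of 1.44 (SE 0.45, limma adjusted p = 0.0392) did not pass an adjusted p of 0.01. It did so without P30 replicate 3 (log2 difference 1.94, limma adjusted p = 0.00466).

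Selp (166045395 to 166080157) followed the same pattern, at 25.2, 21.1 and 15.5 FPKM at P5 and 52.9, 135 and 28.4 at P30. The ages were again separate by a narrow margin. The mean was 20.6 ± 4.87 and 72.1 ± 55.8 (SD, n = 3), with a log2 difference of 1.50 (SE 0.51, limma adjusted p = 0.0517). P30 replicate 2 set the size of this difference, since the fold was 3.38 over all samples and 1.93 without it (limma adjusted p = 0.0701). The ratio of Selp to Sele was between 0.520 and 0.908 at P5 and between 0.589 and 0.865 at P30, so the proportion of the selectins overlapped between the ages. Within P30, the highest isolation was 4.75 times the lowest for Selp and 3.82 times for Sele.

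**Figure D2:**
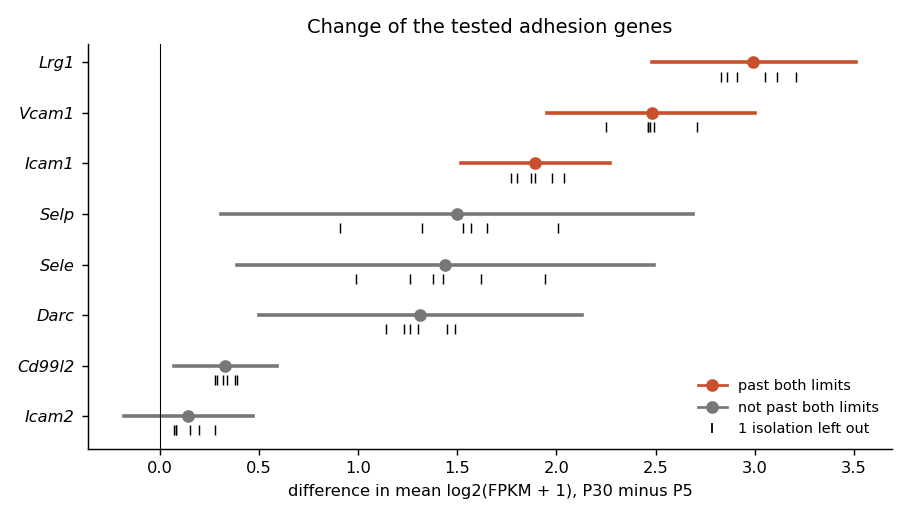
Difference in mean log2(FPKM + 1), P30 minus P5 (horizontal axis), for the 8 tested adhesion genes; points are limma estimates, lines their 95% intervals, and black ticks the estimate with 1 isolation left out in turn. The intervals of Lrg1, Vcam1 and Icam1 (red) lie above 1.5, while those of Sele and Selp run from 0.39 to 2.49 and from 0.31 to 2.69.

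Madcam1 encodes the addressin of mucosal venules, a ligand of the gut-homing integrin alpha4 beta7. Madcam1 (chromosome 10, 79127319 to 79131281) was listed at 2.68, 2.50 and 1.23 FPKM at P5 and at 0 in the 3 P30 isolations. All of these values are below the minimum of 5, and no fold is given against a group listed at 0. With no minimum, its log2 difference of -1.61 passed both limits (limma adjusted p = 0.00785), and with a minimum of 1 it did not (limma adjusted p = 0.0221). It alone among the 9 genes lay lower at P30 in every isolation.

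Darc, or Ackr1, is the atypical chemokine receptor of venular ECs and red cells, which binds chemokines without signalling and carries them across the vessel wall. Darc (chromosome 1, 175262017 to 175263634) had 4.19, 2.19 and 2.98 FPKM at P5 and 9.88, 10.2 and 7.28 at P30. Every P30 isolation was higher, yet all values were low, with 48.2% to 50.5% of gene symbols at or above its level at P30. The log2 difference was 1.31 (SE 0.35, limma adjusted p = 0.0228), and it passed the limits when limma was run without a trend (limma adjusted p = 0.00837).

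Lrg1 encodes a secreted leucine-rich glycoprotein that binds endoglin in the TGF-beta receptor complex of ECs and is also made by neutrophils and liver. It had the largest change of the 9 genes. Lrg1 (chromosome 17, 56259103 to 56261369) was at 59.1, 54.4 and 40.2 FPKM at P5 and at 459.7, 495 and 303 at P30. The lowest P30 isolation was thus several-fold above the highest P5 isolation. Its mean rose from 51.2 ± 9.86 to 419 ± 102 (SD, n = 3), a log2 difference of 2.99 (SE 0.22, limma adjusted p = 0.000204), and 1.39% of the genes tested had a larger rise. By FPKM it moved from the top 26.6% to 32.7% of gene symbols at P5 to the top 2.51% to 4.19% at P30.

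Cd99l2, a relative of CD99 that acts in the last step of leukocyte passage, had the smallest difference after Icam2. Cd99l2 (chromosome X, 68673235 to 68746024) had 77.0, 87.75 and 83.15 FPKM at P5 and 95.9, 110.5 and 107 at P30. The ages did not overlap, but the fold was only 1.26 (log2 difference 0.33, SE 0.11, 95% interval 0.07 to 0.59, limma adjusted p = 0.0487), and the log2 difference was -0.05 with samples scaled to the endothelial markers, which is 0.43 relative to the median of all genes under that scaling.

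Ranked by mean FPKM at P5, the genes ran Icam2, Icam1, Cd99l2, Lrg1, Sele, Vcam1, Selp, Darc and Madcam1. Sele overlapped Vcam1, Vcam1 overlapped Selp and Darc overlapped Madcam1 in the values of their isolations, while the other neighbours were separate. At P30 the order was Icam1, Icam2, Lrg1, Vcam1, Cd99l2, Sele, Selp, Darc and Madcam1. Neighbours from Vcam1 through Cd99l2 and Sele to Selp overlapped, and all others were separate. Lrg1 and Vcam1 thus stood below Cd99l2 in every P5 isolation, while at P30 Lrg1 was above it in every isolation and Vcam1 in 2 of 3.

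Annotated transcripts on the opposite strand overlap Icam1 (Mir1900), Selp (Gm16548 and Gm16587) and Cd99l2 (Gm16189) in the GENCODE annotation of mm9. The library kit is not described as keeping strand, so reads of these pairs cannot be told apart. Icam4 begins 575 bases after Icam1 on the same strand, and its own FPKM was 3.26, 3.30 and 3.93 at P5 and 0, 20.1 and 13.5 at P30, which did not follow Icam1.

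The other genes of leukocyte adhesion were taken from 6 lists that hold 88 symbols together. Of these, 87 were in the files and 80 were tested. Past both limits, 10 were higher at P30 (12.5% as against 5.89% of all genes) and 0 higher at P5. At an unadjusted p under 0.05 in limma, 33 of the 80 were higher at P30, against 20.7% of all genes tested, and 15 were lower, against 28.8%. Without P5 replicate 2 or without P5 replicate 3, 6 of these genes were higher at P30, against 3.24% and 3.17% of all genes. With samples scaled to endothelial markers, 4 were higher at P30, against 3.94% of all genes, and 4 at P5, against 13.7%.

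Among the junction and transmigration genes, 2 of 13 tested were higher at P30 and 0 at P5, against 5.89% and 5.82% of all genes. At an unadjusted p under 0.05 in limma, 6 were higher at P30 and 5 lower, against 20.7% and 28.8% of all genes. Jam3, a junctional adhesion molecule, rose from 176 ± 13.0 to 377 ± 43.5 FPKM (SD, n = 3, limma adjusted p = 0.000632), and Pvr, the nectin-like ligand of DNAM-1, from 103 ± 15.4 to 210.2 ± 10.2 (limma adjusted p = 0.00112). Their folds of 2.13 and 2.03 were close to the 2-fold limit. A further 3 genes had higher values at an adjusted p under 0.01 with less than 2-fold, Jam2, Esam and Cd47, and Cdh5 had a lower value in the same way.

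Selectin ligand carriers and their enzymes gave 1 call in 9 tested, upwards, against 5.89% of all genes. At an unadjusted p under 0.05 in limma, 4 were higher at P30 and 2 lower, against 20.7% and 28.8% of all genes. St3gal6, a sialyltransferase that helps build selectin ligands, rose from 78.9 ± 23.5 to 246 ± 27.4 FPKM (limma adjusted p = 0.00148). Glycam1, Chst4 and Fut7, which serve the high endothelial venules of lymph nodes, were listed at 0 in all 6 samples.

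In the list of docking and storage genes, 1 of 14 tested was counted, upwards, against 5.89% of all genes. At an unadjusted p under 0.05 in limma, 4 were higher at P30 and 0 lower, against 20.7% and 28.8% of all genes. Cx3cl1, or fractalkine, a membrane-bound chemokine that also acts as an adhesion molecule, rose from 147 ± 32.6 to 1064 ± 100.2 FPKM (log2 difference 2.87, SE 0.17, limma adjusted p = 0.000119). This is a rise near that of Lrg1. Vwf, whose protein builds the granules that store P-selectin, was at 980.5 ± 216 and 1300.2 ± 323 FPKM (log2 difference 0.40, limma adjusted p = 0.213).

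Of the NF-kB and cytokine receptor genes, 28 were tested. At an unadjusted p under 0.05 in limma, 13 were higher at P30 and 1 lower, against 20.7% and 28.8% of all genes. Past both limits there were 4 calls, all upwards, against 5.89% of all genes. Among the 4, the largest log2 differences were those of Nfkbia, the inhibitor of NF-kB and itself one of its targets (1.49, limma adjusted p = 0.000127), Il1r1, the interleukin-1 receptor (1.34, limma adjusted p = 0.00726), and Tnfaip3, the feedback inhibitor A20 (1.27, limma adjusted p = 0.00275). Birc3, another known target, was the other. Nfkbia passed both limits in 14 of 14 alternatives and Il1r1 failed them in 9 of 14. Nfkbia alone of the list was called without P5 replicate 1, 2 or 3 and with endothelial scaling. Nfkbia had 684, 648 and 626 FPKM at P5 and 1736, 1944 and 1817 at P30, with every P30 isolation more than 2-fold above every P5 isolation. The median log2 difference over the list was 0.11. Rela had 145 ± 17.6 and 242 ± 27.8 FPKM (fold 1.66, limma adjusted p = 0.00532) and Nfkb1 had 197 ± 2.49 and 181 ± 17.9 (limma adjusted p = 0.358).

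Among the receptor partners and targets around Lrg1, 2 of 9 tested were counted, both higher at P30, against 5.89% of all genes. At an unadjusted p under 0.05 in limma, 5 were higher at P30 and 4 lower, against 20.7% and 28.8% of all genes. Id1 and Id3, target genes of BMP and ALK1 signalling, rose 4.34-fold and 2.26-fold (limma adjusted p = 0.000585 and 0.000369). Eng, which encodes endoglin, had 1865 ± 206 and 3592 ± 489 FPKM (fold 1.93, limma adjusted p = 0.00273), just under the 2-fold limit. Smad5, a BMP signal transducer, had 220.5 ± 3.66 and 111 ± 12.5 FPKM (log2 difference -0.98, limma adjusted p = 0.000773), also just under 2-fold, and passed both limits as higher at P5 in 3 of 14 alternatives. Smad1, another such transducer, and Tgfbr1, a TGF-beta receptor, were likewise lower at P30 at an adjusted p under 0.01 with less than 2-fold (log2 difference -0.80 and -0.54, limma adjusted p = 0.00594 and 0.00772).

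Of the counter-receptors that leukocytes carry, 7 were tested and 0 were counted, against 5.89% of all genes upwards and 5.82% downwards. At an unadjusted p under 0.05 in limma, 3 were lower and 1 higher at P30, against 28.8% and 20.7% of all genes. Itga4, the alpha chain of VLA-4, had 51.4 ± 4.56 FPKM at P5 and 21.5 ± 13.6 at P30 (log2 difference -1.39, limma adjusted p = 0.0285). Itgal and Itgb2, which form LFA-1, had 9.64 ± 1.10 and 13.9 ± 2.99 FPKM at P5 and 5.22 ± 1.90 and 9.90 ± 3.36 at P30. Selplg, the ligand of P-selectin, had 5.86 ± 0.996 and 7.25 ± 2.83. Itgal, Itgb2 and Selplg lay below Icam1 and Icam2 in every sample. Itgb1, the beta chain of VLA-4 that many cell types carry, was at 1882 ± 30.4 and 1323 ± 143 FPKM (log2 difference -0.51, limma adjusted p = 0.00923), less than 2-fold lower at P30.

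**Figure D3:**
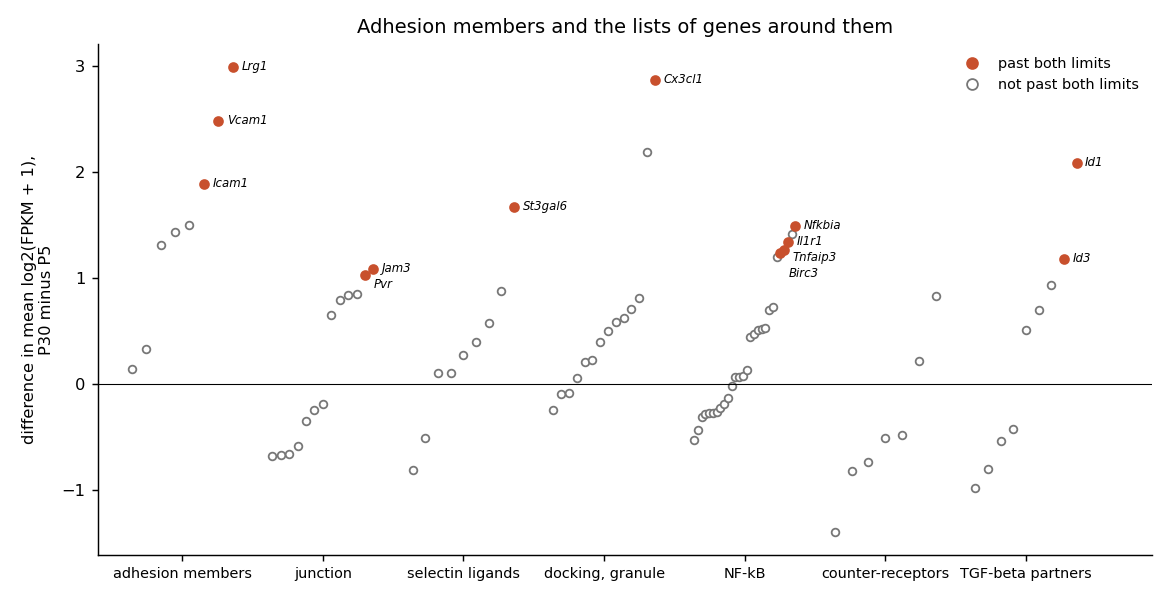
Difference in mean log2(FPKM + 1), P30 minus P5 (vertical axis), of every tested gene in the adhesion set and in the 6 lists around it, ordered by size within each list; filled points passed both limits and are named. The filled points all lie above 0, from 1.03 for Pvr to 2.99 for Lrg1.

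The sorted cells carried endothelial markers at both ages. Pecam1 had 1611 ± 70.8 FPKM at P5 and 1421 ± 167 at P30, and Cdh5, the sorted antigen, 2971 ± 95.4 and 1885 ± 52.4. Within each sample, Icam1 over Pecam1 was between 0.178 and 0.240 at P5 and between 0.797 and 1.001 at P30, and Lrg1 over Pecam1 between 0.0249 and 0.0384 and between 0.244 and 0.343. These ratios, too, were chosen after the values had been seen and carry no test. Pecam1 overlapped between the ages (log2 difference -0.19). Ratios to a marker that rose with age, such as Plvap (log2 difference 1.28), would rise less. The genes that lead a marker list below are its highest by mean FPKM over all 6 samples. The 11 endothelial markers, led by Plvap and Emcn, summed to between 23988 and 26275 FPKM at P5 and to between 34012 and 41979 at P30. Of these, 7 were higher in every P30 isolation and 1, Cdh5, was lower in every one. Plvap alone passed both limits, from 4692 ± 140 to 11590 ± 2515 (SD, n = 3, limma adjusted p = 0.00182). It weighs on this sum and is also among the markers used for the endothelial scaling. No 2 of the 6 samples held identical values.

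Markers of other cells moved with age as well, and in bulk samples fewer cells of a type and less RNA per cell cannot be told apart. RPE markers, led by Ttr and Rgr, summed to between 73.0 and 156 FPKM at P5 and to 3816, 2125 and 507 in P30 replicates 1, 2 and 3, with all 8 markers separate between the ages. Photoreceptor markers summed to at most 27.0 at P5 and to 404, 280.2 and 58.2 at P30. Pericyte markers, led by Rgs5 and Pdgfrb, summed to between 497 and 1765 at P5 and to 1872, 6290.4 and 3857 at P30. Of these 7 genes, 4 were higher in every P30 isolation, while Cspg4, Notch3 and Abcc9 overlapped between the ages. Fibroblast markers, led by Col3a1 and Dcn, summed to between 725 and 1193 at P5 and to 1782, 4490.4 and 2387 at P30. Among these 7 genes, 4 were likewise higher in every P30 isolation, while Col1a1, Col1a2 and Col3a1 overlapped. Smooth muscle markers, led by Smtn and Acta2, summed to between 535 and 563 at P5 and to 830.1, 1236 and 603 at P30. Smtn made up most of the smooth muscle sum at P5 and overlapped between the ages, while Myh11 rose 9.07-fold (limma adjusted p = 0.00965) and Acta2 and Tagln were separate, at 4.17-fold and 4.07-fold. The part of these cells in the adhesion results was not tested.

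Markers of blood cells, which share several of the adhesion genes, went in different directions. Macrophage and leukocyte markers, led by Lyz2 and Csf1r, summed to between 956 and 1247 FPKM at P5 and to between 325 and 866 at P30, with 7 of 10 genes lower in every P30 isolation. Lyz2, Cd68 and Itgam overlapped between the ages, with Lyz2 at 204 ± 65.2 FPKM at P5 and 254 ± 128 at P30 (SD, n = 3). Platelet markers, of interest for Selp, summed to between 428 and 487 at P5 and to between 51.2 and 190 at P30. The list was led by Pf4 and Gp1bb, which went opposite ways. Pf4, most of the sum at P5, fell from 443 ± 31.6 to 68.4 ± 63.2 (SD, n = 3). Gp1bb was higher in every P30 isolation, at 4.57 ± 2.46 and 21.9 ± 18.8. The other genes of the list overlapped between the ages, and Gp9, Itga2b and Gp1ba were each at most 6.11 in any sample. Of the neutrophil markers, of interest for Lrg1, S100a8, Ngp, Mpo and Elane were listed at 0 in all samples, and the list, led by Ltf and Camp, summed to between 0.51 and 1.17 at P5 and to between 3.57 and 15.4 at P30. Camp was above 0 in P30 replicate 1 alone (7.76) and S100a9 in P30 replicate 2 alone (4.53). Only Ltf was separate between the ages, without passing both limits (limma adjusted p = 0.0397). Erythroid markers, of interest for Darc and led by Hba-a1 and Hbb-b1, summed to between 151 and 484 at P5 and to between 433 and 1395 at P30, with Epb4.2 listed at 0 throughout. Lymphatic endothelial markers, led by Flt4 and Pdpn, summed to between 362 and 496 and to between 517 and 645, with Prox1 at most 7.47.

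The P30 isolations differed from each other in a common way. In 6 of the 8 tested adhesion genes, all but Icam2 and Cd99l2, P30 replicate 2 was the highest and P30 replicate 3 the lowest, an order found in 19.7% of all genes tested. Against the P5 mean, Selp stood at 2.56, 6.55 and 1.38 times in P30 replicates 1, 2 and 3, Vcam1 at 5.90, 7.84 and 4.12 times and Lrg1 at 8.97, 9.65 and 5.92 times. The sums of the smooth muscle and erythroid markers had the same order of isolations, the pericyte and fibroblast sums were highest in replicate 2 and lowest in replicate 1, and the RPE sum was highest in replicate 1. In P30 replicate 3, the RPE, photoreceptor, smooth muscle, erythroid and neutrophil sums were the lowest of the P30 isolations. They were at 4.96, 2.64, 1.10, 1.39 and 3.81 times the P5 mean in that isolation. The pericyte and fibroblast sums were at 3.62 and 2.305 times. Lrg1, Vcam1 and Icam1 were at 5.92, 4.12 and 3.02 times the P5 mean in that isolation. Leaving out any 1 isolation kept these 3 genes past both limits.

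**Figure D4:**
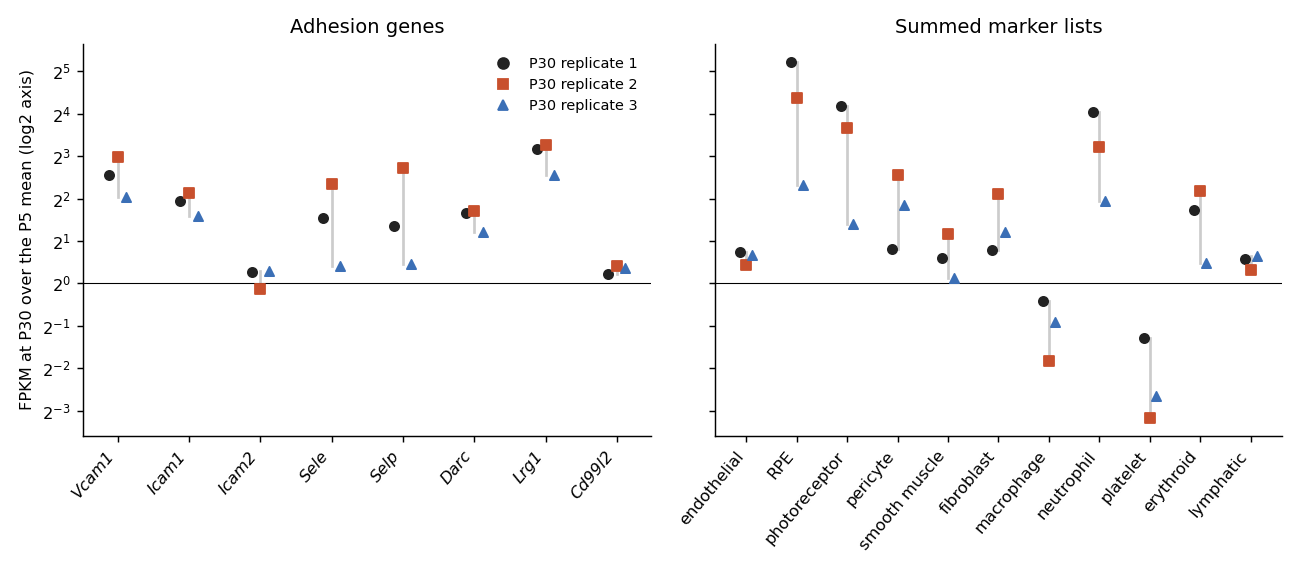
FPKM in each P30 isolation divided by the mean of the P5 isolations (vertical axis, log2 scale), for 8 adhesion genes on the left and for the summed FPKM of 11 marker lists on the right; symbols mark P30 replicates 1, 2 and 3 and the line at 1 is the P5 mean. Madcam1, listed at 0 at P30, is not drawn. Replicate 2 is uppermost for Selp (6.55) and Sele (5.08), while replicate 3 is at 1.38 and 1.33.

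The genes whose pattern over the 6 samples was most like those of the 3 risen genes were named by Pearson's r of log2(FPKM + 1), as a description with no test. For Lrg1 they were Herpud1 (r = 0.9996), Ankrd44 (r = 0.9986) and Icam1 itself (r = 0.9986). For Vcam1 they were Sdf2 (r = 0.9997), Tgm2 (r = 0.9987) and Klf15 (r = 0.9971). For Icam1 they were Ankrd44 (r = 0.9996), Kdm6b (r = 0.9989) and Ccdc157 (r = 0.9986). Since the points fall into 2 ages, such values are common, and between 658 and 853 of 12480 genes had an r over 0.95 with each of the 3.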

How the data were processed

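RNA was sequenced from choroid ECs of 3 isolations at P5 and 3 at P30, grouped by their labels. The authors prepared TruSeq libraries for the HiSeq2000, and per the labels used CASAVA 1.8.2, FastQC, TopHat on mm9 and Cufflinks, corrected for GC content and scaled to the upper quartile. They deposited 1 FPKM value per gene symbol and sample. Versions of TopHat and Cufflinks and the gene annotation are not given in the sources used here. Read counts were not used here, so depth is unknown and no counting error is given. The authors tested read counts with DESeq2, whereas limma was used here because the values are FPKM. Changes are therefore relative to the upper quartile of each sample.

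From FPKM, log2(FPKM + 1) was fitted with limma 3.58.1 in R 4.3.3 (eBayes with trend, no replicate block) over genes whose mean FPKM reached 5 at P5 or P30, and adjusted over all of them. Python 3.11.15, pandas 2.3.3 and matplotlib 3.10.9 did the rest. The fit was tested on simulated data. Gene positions are those of GENCODE on mm9, matched by symbol, and promoters those of RefSeq on GRCm38.p6. Sequencing lanes held 4 samples each. Which samples shared a lane is not given in the sources used here, so lane and age could not be separated. The p-values measure the spread between isolations only.

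The members and lists were chosen with earlier results of these data known. Named genes are the 9 members, up to 3 rises and 3 falls per list past the limits, and the 3 most similar genes for up to 3 changed members. Birc3, Rela, Nfkb1, Vwf, Eng, Icam4 Itga4 and other genes given as values were named after their values were seen. Some genes of the lists are not reported here by name.

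Alternatives were pseudocounts of 0.1 and 5, a minimum of 1 or none, no trend, quantile normalization, scaling to 11 endothelial markers, a replicate block, and each isolation left out.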

Additional observations from a re-analysis of the deposited data

How the results depend on the processing

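Lrg1, Vcam1 and Icam1 stayed past both limits in all 14 alternatives tried for each, with log2 differences from 2.62 to 3.21, from 2.10 to 2.71 and from 1.51 to 2.04. The other members changed side or sign as follows. Darc passed the limits without a trend (1.31). Sele passed without P30 replicate 3, with a range of 0.99 to 1.94 over isolations left out, as Selp ranged from 0.91 to 2.01 without passing. Madcam1 passed with no minimum (-1.61). The sign turned for Icam2 with quantile normalization (-0.12) and with endothelial scaling (-0.24), and for Cd99l2 with endothelial scaling (-0.05). Of the genes in the 6 lists, 10 were higher at P30, against 5.89% of all genes. They were between 6 and 11 with 1 isolation left out (3.17% to 6.77% of all genes) and 4 with endothelial scaling (3.94%). The 0 genes higher at P5, against 5.82% of all genes, became 4 with quantile normalization (5.68%) and 4 with endothelial scaling (13.7%). With 1 isolation left out, between 0 and 2 were higher at P5, against 2.33% to 6.08% of all genes.

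Endothelial scaling moved the median log2 difference of all genes from -0.10 to -0.48 and the calls from 735 higher at P30 and 726 higher at P5 to 491 and 1710. Relative to that median, Lrg1, Vcam1 and Icam1 lay at 3.09, 2.58 and 1.99, and Icam2 and Cd99l2 at 0.24 and 0.43. With 1 isolation left out, between 396 and 849 genes passed upwards and between 291 and 754 downwards. No pairing of isolations between the ages is described in the sources used here. Same-numbered samples deviated together with an r between -0.09 and -0.03, and 0 of 6 samples deviated most like their own number. Such values cannot exclude a shared sort day, batch or lane. With the replicate block, 585 genes passed upwards and 524 downwards, and the same 3 members were called, with log2 differences of 2.99 for Lrg1, 2.48 for Vcam1 and 1.89 for Icam1.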
